A study of Mus musculus with 24 samples.

Results

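ERBB receptors and the ligands that bind them were followed across 4 experiments in which pleiotrophin (PTN), a secreted heparin-binding growth factor, was inhibited in mouse mammary cancer. The genes were chosen by symbol: the receptors Egfr, Erbb2 and Erbb3 and the ligands Areg, Ereg, Hbegf, Tgfa and Nrg1, 8 genes in all. Of these, 7 were among the 12091 genes of the expression table, and Nrg1 was not analysed here. The 24 RNA sequencing samples fell into 8 groups of 3. In the 4T1 experiment, cells of this BALB/c mammary cancer line were implanted orthotopically into mice at 8 weeks of age, and in the MMTV-PyMT experiment FVB/N mice carried the polyoma middle T oncogene under the mouse mammary tumor virus promoter, with the first dose at 8 weeks and harvest at 12 weeks of age. Both received either 3B10, an antibody against PTN, or C44, a control IgG, at 15 mg/kg in 2 doses per week. The other experiments used cultured cells: E0771, a poorly metastatic C57BL/6 mammary cancer line, and E0771-LG, a highly metastatic line derived from an E0771 lung metastasis. Each carried a pLKO.1-puro vector with a hairpin against Ptn (shPTN) or against EGFP (shCtrl), kept under puromycin for 6 weeks, and each shPTN group rests on 1 hairpin construct.

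The ERBB receptors are cell surface tyrosine kinases that pair with each other when a ligand binds. EGFR takes up amphiregulin (Areg), epiregulin (Ereg), heparin-binding EGF-like growth factor (Hbegf) and transforming growth factor alpha (Tgfa), ERBB3 takes up neuregulins and has little kinase activity of its own, and ERBB2 has no known ligand and acts as a partner of the others. The ligands are made as membrane proteins, are released by sheddases, and drive the RAS to ERK and PI3K to AKT branches; amphiregulin is needed for duct growth in the mammary gland, and ERBB2 is amplified in a share of breast cancers.

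The recovered depth was 15.63 to 21.12 M (mega) reads per sample in the 18 samples of MMTV-PyMT, E0771 and E0771-LG, with a median of 18.24 M reads. By group the depth was 18.76 to 19.25 M in MMTV-PyMT C44, 16.26 to 18.44 M in MMTV-PyMT 3B10, 16.61 to 20.42 M in E0771shCtrl, 15.63 to 19.32 M in E0771shPTN, 17.3 to 19.59 M in E0771-LGshCtrl and 17.43 to 21.12 M in E0771-LGshPTN. Their deposited values are log2 CPM, read counts scaled to the depth of the sample, with an offset of 0.5 read, from which whole reads were recovered. The 4T1 values were on another scale, and their depth is unknown. They fell with gene length (slope −0.693 per log2 length against E0771-LG) and were taken as already per length, which was not tested. Each experiment was therefore fitted by itself with limma, as PTN-inhibited minus control, and a gene was called at a Benjamini-Hochberg adjusted p under 0.05 over all genes tested. Pearson correlations between the 3 replicates of a group, across genes, ran from 0.967 to 0.99. The methods of the study call the samples biological replicates, without saying whether the cell samples were separate cultures, so p-values for them measure the spread between these samples, part of which may be technical. In the tumors, which are bulk samples, fewer cells of a type and less RNA per cell cannot be told apart.

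Ptn itself served as the check of the labels of the knockdown cells. Its log2 CPM was 2.90, 2.18 and 2.28 in the E0771shCtrl samples and −0.63, 0.25 and 0.53 in the E0771shPTN samples. In E0771-LG it was 3.65, 4.51 and 3.74 with shCtrl and 1.42, 0.98 and 1.38 with shPTN. In both lines all 3 knockdown samples were under their controls, and the log2 fold change was −2.40 in E0771 (limma adjusted p = 0.00159, 18.9% of control) and −2.71 in E0771-LG (limma adjusted p = 6.3e-05, 15.3% of control). In MMTV-PyMT tumors Ptn was 2.80, 2.73 and 3.43 with C44 and 3.28, 2.95 and 4.22 with 3B10, overlapping groups with a log2 fold change of 0.50 (limma adjusted p = 1.00) that ran from 0.13 to 0.77 without 1 tumor. The deposited 4T1 log2 values were −0.19, −0.65 and −0.12 with C44 and −0.76, 0.87 and 0.37 with 3B10, too low to pass the filter on low values. As 3B10 is an antibody against the protein, Ptn RNA was no check of the tumor labels.

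The members were set against each other per length, as CPM per kilobase of exon (RPKM), given as mean ± SD over 3 samples. In E0771shCtrl cells the order was Areg at 31.7 ± 12.7, Erbb2 at 10.3 ± 0.664, Ereg at 9.72 ± 2.30, Hbegf at 7.83 ± 2.25, Erbb3 at 5.23 ± 0.699 and Egfr at 0.936 ± 0.177. From Erbb2 to Erbb3, each neighbour in that order overlapped the next within 1 SD of both means, while Areg stood above this run and Egfr below it. In E0771-LGshCtrl cells Areg again led at 30.3 ± 7.54, before Hbegf at 9.68 ± 1.06, Erbb2 at 7.99 ± 0.825, Ereg at 7.11 ± 1.04, Erbb3 at 3.30 ± 0.493 and Egfr at 3.28 ± 0.521. Hbegf and Erbb2, Erbb2 and Ereg, and Erbb3 and Egfr did not differ beyond their spread. Tgfa had 0 to 2 reads in each E0771 sample and 0 in each of the 6 E0771-LG samples, where a limit of 3 reads allows 0.142 to 0.173 CPM, so it could not be followed in cells; such limits cover counting error only. Among the members, MMTV-PyMT C44 tumors had a receptor-led order, with Erbb3 at 30.1 ± 2.75, Erbb2 at 23.9 ± 3.68 and Egfr at 7.79 ± 0.194. Below these came Tgfa at 3.44 ± 1.76, Hbegf at 2.03 ± 0.468 and Areg at 0.877 ± 0.641. Nrg2, a neuregulin outside the members, was at 15.3 ± 0.871 there, between Erbb2 and Egfr. The neighbours Erbb3 and Erbb2, and Tgfa and Hbegf, overlapped within 1 SD, and Ereg had 0 to 5 reads in each of the 6 MMTV-PyMT tumors. In 4T1 C44 tumors, on the scale of that experiment alone, the order was Hbegf at 209 ± 41.1, Areg at 97.2 ± 68.2, Tgfa at 40.1 ± 12.3, Erbb2 at 31.8 ± 2.82, Erbb3 at 4.05 ± 1.05, Egfr at 2.93 ± 0.667 and Ereg at 1.49 ± 0.760. Areg, Tgfa and Erbb2 overlapped within their spread there, as did Erbb3 and Egfr.

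**Figure D1:**
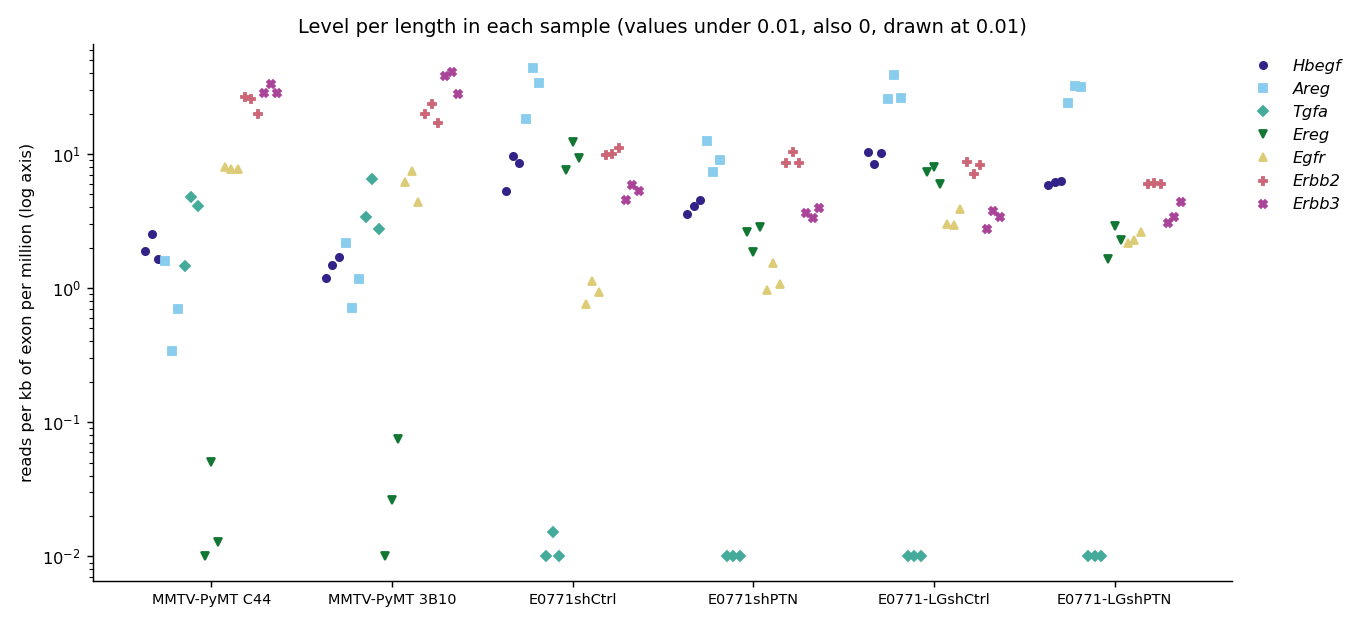
Level per length of each member (RPKM, log axis) in each of the 18 samples with recovered reads, with values under 0.01 drawn at 0.01. Areg was the highest member in the controls of both cell lines and in E0771-LGshPTN, and Erbb3 and Erbb2 were the highest in MMTV-PyMT tumors.

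Ereg, Areg, Hbegf and Erbb3 fell when Ptn was knocked down in E0771. limma called 4 of the 6 members tested (66.7%), all lower, against 20.6% of all 10394 genes tested in E0771 (2140 genes, 924 higher and 1216 lower). With all 24 samples in 1 fit, 2 members were called. The total for all genes was 1268 without E0771shCtrl replicate 2, 1171 without E0771shCtrl replicate 3 and 1238 without E0771shPTN replicate 3. Log2 CPM of Ereg was 4.98, 5.65 and 5.27 in the shCtrl samples and 3.43, 2.94 and 3.55 in the shPTN samples. All 3 knockdown samples were below all 3 controls with a wide gap, and the log2 fold change was −1.99 (SE 0.20, 95% interval −2.44 to −1.54, limma adjusted p = 0.000156), 25.1% of the control level. With all 24 samples in 1 fit the call was lost (adjusted p = 0.0702). Log2 CPM of Areg was 4.46, 5.72 and 5.35 with shCtrl and 3.93, 3.15 and 3.46 with shPTN. Replicate 1 was the lowest of the controls, for Areg as for each of the other 5 members tested, and for Areg it was still above every shPTN sample. The Areg log2 fold change was −1.66 (SE 0.32, 95% interval −2.39 to −0.94, limma adjusted p = 0.00809), 31.6% of control. That call was lost with a replicate block (limma adjusted p = 0.0761). Whether same-numbered samples pair was not settled.

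Hbegf, a ligand also known as the diphtheria toxin receptor, had log2 CPM of 4.68, 5.55 and 5.36 with shCtrl and 4.12, 4.30 and 4.46 with shPTN. The E0771 groups did not overlap, and the log2 fold change was −0.90 (SE 0.20, 95% interval −1.36 to −0.45, limma adjusted p = 0.0112), 53.4% of control. Btc, which encodes betacellulin, a ligand of EGFR and ERBB4 from the list of other pathway genes, had log2 CPM of 3.60, 4.12 and 3.86 with shCtrl and 2.55, 2.01 and 2.13 with shPTN. Here too the groups stood apart, with a log2 fold change of −1.63 (SE 0.21, limma adjusted p = 0.000625) and 32.4% of the control level. Summed per length over the 4 ligand members, the ligand level was 49.2 ± 17.2 with shCtrl and 16.1 ± 2.77 with shPTN (SD, n = 3), and the lowest control sum, 31.1, was above the highest knockdown sum, 18.7. Areg made up 58.4 to 66.5% of that sum in controls and 55.0 to 66.9% after knockdown, while the share of Ereg went from 18.2 to 24.5% down to 13.9 to 17.2% and that of Hbegf from 14.8 to 17.1% up to 19.2 to 30.8%. These shares are ranges over 3 samples and were not tested.

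**Figure D2:**
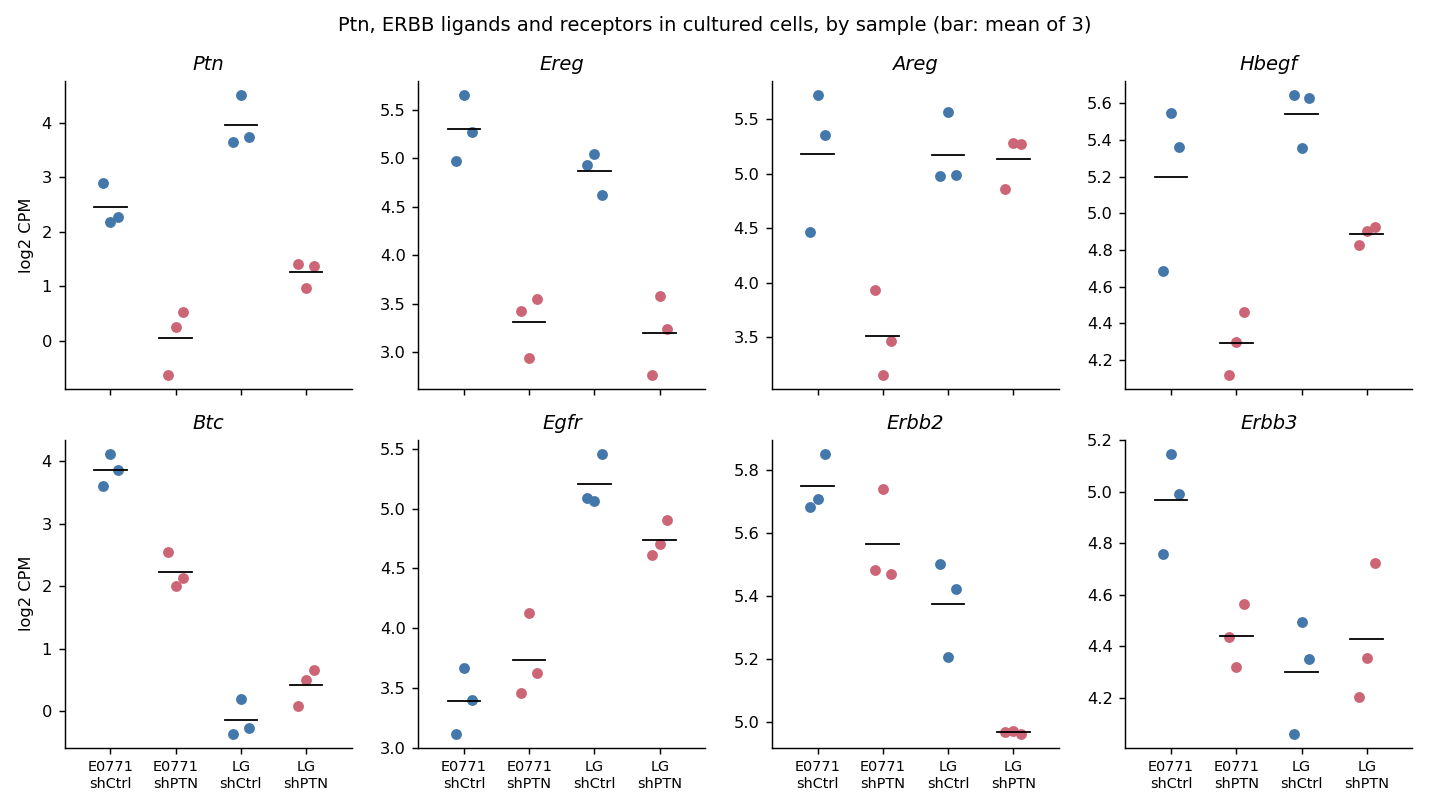
Log2 CPM of Ptn, of Btc and of the 6 members tested in cells, with a point for each sample and a bar at the mean of 3, in E0771shCtrl, E0771shPTN, E0771-LGshCtrl and E0771-LGshPTN. Ereg and Hbegf lay lower with shPTN in both lines, Areg and Btc in E0771.

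Ereg, Areg and Btc are neighbours on chromosome 5 of GRCm38: Ereg (ENSMUSG00000029377) at chr5:91074622-91093646 and Areg (ENSMUSG00000029378) at chr5:91139599-91148432 on the plus strand, and Btc (ENSMUSG00000082361) at chr5:91357261-91402994 on the minus strand. From Ereg to Areg the distance is 46.0 kb and from Areg to Btc 208.8 kb, and Areg is the 1 gene of the table between the outer pair. Promoter sequences, credited to RefSeq for GRCm38.p6, were matched for 4 of the 8 members (Egfr, Erbb2, Areg and Tgfa) and for Btc. Those missing were Erbb3, Ereg, Hbegf and Nrg1. Each spans 300 bases, 250 before the transcription start and 50 after it. They were searched on both strands for TGANTCA (the AP-1 element, in 7.81% of 32851 promoters of that length), TGACGTCA (the cyclic AMP response element, CRE, in 1.79%) and the NF-κB motif (in 5.8%); AP-1 and CRE do not share a spelling. Among the 5 promoters there was 1 match, a CRE 61 bases before the start of Areg. The promoters of Areg (chr5:91139349-91139648, plus strand) and Btc (chr5:91402945-91403244, minus strand) are printed because these neighbouring ligands fell together in E0771, 5′ to 3′ on the strand of the gene, with the CRE in capitals.
Areg: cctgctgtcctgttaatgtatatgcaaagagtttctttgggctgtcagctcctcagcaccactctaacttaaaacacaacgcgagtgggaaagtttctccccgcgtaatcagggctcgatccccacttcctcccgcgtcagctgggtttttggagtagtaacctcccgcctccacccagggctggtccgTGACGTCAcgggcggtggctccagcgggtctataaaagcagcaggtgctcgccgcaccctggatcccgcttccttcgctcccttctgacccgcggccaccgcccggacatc
Btc: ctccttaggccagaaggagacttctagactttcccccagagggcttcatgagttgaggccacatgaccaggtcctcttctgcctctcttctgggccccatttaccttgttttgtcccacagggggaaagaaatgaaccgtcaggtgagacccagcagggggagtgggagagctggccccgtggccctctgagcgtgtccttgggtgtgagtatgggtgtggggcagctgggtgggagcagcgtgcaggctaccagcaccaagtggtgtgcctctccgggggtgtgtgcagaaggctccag
The match describes letters in this window, and binding to it was not measured.

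In E0771-LG cells Ereg and Hbegf fell, and Areg did not pass the test. limma called 4 of the 6 members tested, again all lower, against 46.4% of all 10405 genes tested in E0771-LG (4826 genes, 2531 higher and 2295 lower). The count was 2 without E0771-LGshCtrl replicate 3 or E0771-LGshPTN replicate 2, 3 without E0771-LGshPTN replicate 1 or 3, and 2 with all 24 samples in 1 fit. In this line Ereg log2 CPM was 4.93, 5.04 and 4.62 with shCtrl and 2.76, 3.58 and 3.24 with shPTN. The lowest control was more than 1 log2 unit above the highest knockdown sample, and the log2 fold change was −1.67 (SE 0.21, 95% interval −2.14 to −1.20, limma adjusted p = 0.000192), 31.4% of control. With all 24 samples in 1 fit that adjusted p was 0.0536. Hbegf log2 CPM was 5.65, 5.35 and 5.63 with shCtrl and 4.83, 4.90 and 4.92 with shPTN. The 3 knockdown samples lay close together below the controls, with a log2 fold change of −0.66 (SE 0.12, 95% interval −0.93 to −0.39, limma adjusted p = 0.00156), 63.4% of control. Areg log2 CPM was 4.97, 5.57 and 4.98 with shCtrl and 4.86, 5.28 and 5.27 with shPTN, overlapping groups with a log2 fold change of −0.04 (95% interval −0.44 to 0.36, limma adjusted p = 0.878). Its sign turned without E0771-LGshCtrl replicate 2 (0.16) or E0771-LGshPTN replicate 1 (0.10).

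Btc was near its floor in E0771-LG, with 13 to 22 reads in the controls and 22 to 27 in the knockdown samples, and its log2 fold change of 0.56 (95% interval −0.44 to 1.55, limma adjusted p = 0.333) turned to −0.11 under quantile normalization. Per length, the ligand sum in E0771-LG was 47.0 ± 7.27 with shCtrl and 37.5 ± 5.42 with shPTN (SD, n = 3), with 42.2 as the lowest control and 41.1 as the highest knockdown sample. Ereg made up 14.1 to 16.9% of it in controls and 5.24 to 7.05% after knockdown, and Areg went from 59.3 to 70.3% up to 76.0 to 78.7%, so that both ranges stood apart between the groups; the shares were not tested.

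The difference between the lines was tested as an interaction over the 12 cell samples, and 3 of 6 members were called, against 34% of the 10576 genes tested. The Areg effect was higher in E0771-LG than in E0771 by 1.62 log2 units (SE 0.43, 95% interval 0.70 to 2.55, limma adjusted p = 0.0127), a call lost with all 24 samples in 1 fit (adjusted p = 0.101). For Btc the difference was 2.18, from which no test is drawn because Btc was near its floor in E0771-LG (13 to 27 reads). For Ereg it was 0.32 (95% interval −0.36 to 1.01, adjusted p = 0.459) and for Hbegf 0.25 (95% interval −0.29 to 0.79, adjusted p = 0.471), so no difference between the lines passed the test for the ligands that fell in both. Without 1 sample these differences ran from 0.13 to 0.54 for Ereg and from 0.07 to 0.50 for Hbegf. The number of members called was 2 with plain eBayes or quantile normalization, 0 with all 24 samples in 1 fit, and 1 without E0771shCtrl replicate 3, E0771shPTN replicate 2, E0771-LGshCtrl replicate 3 or E0771-LGshPTN replicate 2.

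Among the receptors, the only one called in E0771 was Erbb3. Erbb3 log2 CPM in E0771 was 4.76, 5.15 and 4.99 with shCtrl and 4.44, 4.32 and 4.56 with shPTN. The groups did not overlap, and the log2 fold change was −0.53 (SE 0.14, 95% interval −0.82 to −0.23, limma adjusted p = 0.0192), 69.4% of control, but the call was lost without shCtrl replicate 2 (adjusted p = 0.0796), without shCtrl replicate 3 (0.0755) and with all 24 samples in 1 fit (0.146). Egfr in E0771 ranged from 3.12 to 3.66 with shCtrl and from 3.45 to 4.12 with shPTN, a log2 fold change of 0.34 (95% interval −0.12 to 0.80, limma adjusted p = 0.284) that ran from 0.15 to 0.48 without 1 sample. Erbb2, the most abundant receptor per length there, ranged from 5.68 to 5.85 and from 5.47 to 5.74, a log2 fold change of −0.18 (95% interval −0.42 to 0.06, limma adjusted p = 0.267). Neither passed the test, and the groups overlapped for both.

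In E0771-LG it was Egfr and Erbb2 that passed. Egfr log2 CPM was 5.09, 5.07 and 5.46 with shCtrl and 4.62, 4.70 and 4.90 with shPTN. The groups were apart by a narrow gap, with a log2 fold change of −0.47 (SE 0.15, 95% interval −0.78 to −0.15, limma adjusted p = 0.022), 72.4% of control. The Egfr call was lost without E0771-LGshCtrl replicate 3 (adjusted p = 0.113), E0771-LGshPTN replicate 1 (0.0707) or E0771-LGshPTN replicate 2 (0.0769), and with all 24 samples in 1 fit (0.115). Erbb2 log2 CPM was 5.50, 5.20 and 5.42 with shCtrl and 4.97, 4.97 and 4.96 with shPTN. The knockdown samples were almost equal and below each control, with a log2 fold change of −0.41 (SE 0.12, 95% interval −0.67 to −0.14, limma adjusted p = 0.0172), 75.4% of control, a call lost without E0771-LGshCtrl replicate 3 (adjusted p = 0.0666), E0771-LGshPTN replicate 2 (0.0562) or E0771-LGshPTN replicate 3 (0.0563). Erbb3 ranged from 4.06 to 4.49 with shCtrl and from 4.20 to 4.72 with shPTN, overlapping groups with a log2 fold change of 0.13 (limma adjusted p = 0.582) that was −0.02 without E0771-LGshPTN replicate 3.

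In the interaction test of the receptors the Egfr effect differed by −0.81, lower in E0771-LG (SE 0.27, 95% interval −1.37 to −0.24, limma adjusted p = 0.0295), and the Erbb3 effect by 0.65, higher in E0771-LG (SE 0.23, 95% interval 0.17 to 1.14, limma adjusted p = 0.0378). The Egfr call was lost with all 24 samples in 1 fit (adjusted p = 0.0818) and without E0771shCtrl replicate 1 (0.0744) or 3 (0.0559), E0771shPTN replicate 2 (0.0736), E0771-LGshCtrl replicate 3 (0.0829), or E0771-LGshPTN replicate 1 (0.0607) or 2 (0.0642). The Erbb3 call was lost with all 24 samples in 1 fit (adjusted p = 0.133), plain eBayes (0.0503) and quantile normalization (0.0783). It was also lost without E0771shCtrl replicate 2 (0.0897) or 3 (0.0771), E0771shPTN replicate 1 (0.0522) or 2 (0.0794), E0771-LGshCtrl replicate 1 (0.0772) or 3 (0.0572), or E0771-LGshPTN replicate 2 (0.0575) or 3 (0.103). For Erbb2 the difference was −0.22 (limma adjusted p = 0.286), and as small as −0.14 without 1 sample.

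**Figure D3:**
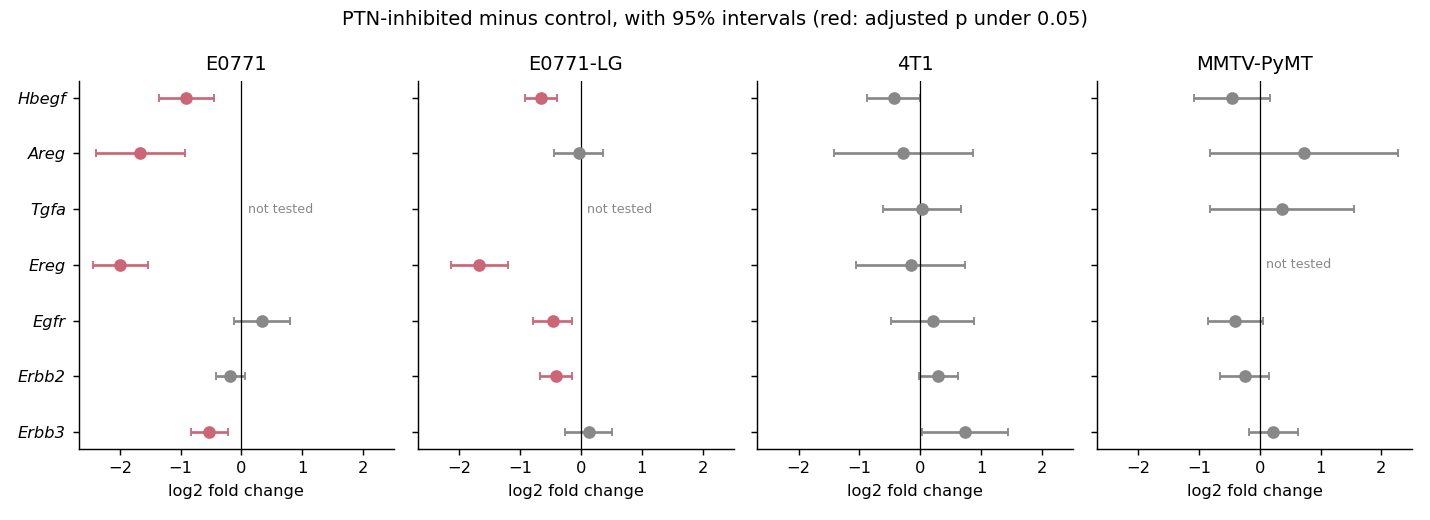
Log2 fold change of each member, PTN-inhibited minus control, with its 95% interval, in the 4 experiments, each from 3 against 3 samples. Red marks an adjusted p under 0.05: Ereg, Areg, Hbegf and Erbb3 in E0771 and Ereg, Hbegf, Egfr and Erbb2 in E0771-LG, with none in 4T1 or MMTV-PyMT.

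The controls of both lines were also compared with each other, as the poorly and the highly metastatic line. These samples are the controls of the knockdown comparisons too, so the values of each comparison stand side by side with no overlap drawn between them. limma called 3 of 6 members, against 54.5% of the 10411 genes tested (2004 higher in E0771-LG, 3672 lower). The median difference of all genes was −0.15, and it was 0.01 under quantile normalization, where 51.5% of the calls were higher, and 0.00 under median centring, where 50.2% were, against 35.3% in the deposited scale. Egfr log2 CPM in the controls was 3.12, 3.66 and 3.40 in E0771 and 5.09, 5.07 and 5.46 in E0771-LG, the widest separation of any receptor, with a log2 difference of 1.81 (SE 0.18, 95% interval 1.42 to 2.20, limma adjusted p = 2.64e-05). That made Egfr 351% of its E0771 level. Erbb3 was lower in E0771-LG, with a log2 difference of −0.67 (limma adjusted p = 0.00486, 63.1%), and so was Erbb2, with −0.37 (limma adjusted p = 0.0207, 77.2%). The Erbb3 difference was −0.37 under quantile normalization (adjusted p = 0.048) and −0.52 under median centring, called in each. The Erbb2 call was lost under quantile normalization (−0.20, adjusted p = 0.187) and median centring (−0.22, adjusted p = 0.147), without E0771shCtrl replicate 3 (adjusted p = 0.0952) and without E0771-LGshCtrl replicate 2 (0.0646).

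For the ligands between the control groups, Ereg had a log2 difference of −0.44 (limma adjusted p = 0.0634), which was called without E0771shCtrl replicate 1 (adjusted p = 0.0202) or E0771-LGshCtrl replicate 2 (0.0442). It was −0.20 under quantile normalization, −0.29 under median centring and −0.26 without E0771shCtrl replicate 2 (adjusted p = 0.235), not called in any of these. Areg had −0.00 (adjusted p = 0.996) and turned to 0.22 under quantile normalization and 0.15 under median centring, and Hbegf had 0.35 (adjusted p = 0.192), with 0.54 under quantile normalization and 0.09 to 0.52 without 1 sample, never called. Btc had 208 to 355 reads in E0771shCtrl and 13 to 22 in E0771-LGshCtrl, near its floor. The log2 difference was −4.00, at 6.26% of its E0771 level. Btc passed the filter on low values through its E0771shCtrl samples, so no test is drawn from this difference.

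None of the members was called in the tumors. In 4T1, limma called 0 of 7 members and 0% of the 11467 genes tested, with 1 member (Erbb3) and 719 genes at an unadjusted p under 0.05; in MMTV-PyMT it called 0 of 6 members and 0% of the 11361 genes tested, with 0 members and 307 genes at that level. Deposited log2 values of Erbb3 in 4T1 were 2.01, 2.53 and 1.95 with C44 and 3.26, 3.15 and 2.29 with 3B10. Of the 3B10 tumors 2 lay above every C44 tumor and replicate 3 lay among them, with a log2 fold change of 0.74 (95% interval 0.02 to 1.45, limma adjusted p = 0.772). Hbegf, the leading ligand in 4T1, was 7.96, 7.72 and 7.39 with C44 and 6.99, 7.25 and 7.51 with 3B10, overlapping through the lowest C44 tumor, with a log2 fold change of −0.44 (95% interval −0.88 to 0.00, limma adjusted p = 0.791). Areg in 4T1 was 7.46, 5.84 and 5.89 with C44 and 6.62, 5.36 and 6.38 with 3B10, with C44 replicate 1 the highest of all; its log2 fold change of −0.28 (limma adjusted p = 0.973) was 0.26 without that tumor and 0.10 without 3B10 replicate 2. The other members in 4T1 ran from −0.16 (Ereg) to 0.30 (Erbb2), with adjusted p of 0.824 and above.

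In MMTV-PyMT, log2 CPM of Egfr was 6.50, 6.44 and 6.44 with C44 and 6.13, 6.41 and 5.64 with 3B10. The groups were apart by 0.03 only, and the log2 fold change was −0.40 (95% interval −0.86 to 0.06, limma adjusted p = 1.00). The other 5 members tested ran from −0.46 (Hbegf) to 0.73 (Areg), each with an adjusted p of 1.00. Areg was low there, with 8 to 37 reads with C44 and 16 to 43 with 3B10. Without 1 tumor the values ran from −0.57 to −0.19 for Egfr, −0.38 to −0.13 for Erbb2, 0.12 to 0.39 for Erbb3, 0.21 to 1.28 for Areg, −0.60 to −0.28 for Hbegf and −0.17 to 0.69 for Tgfa, and Areg was 0.37 with a pseudocount of 1. Hbegf made up 51.8 to 69.0% of the summed ligand level in 4T1 C44 tumors, while in MMTV-PyMT the share of Tgfa was 29.4 to 63.5% with C44 and 48.3 to 74.6% with 3B10. In a test of the difference between the models, MMTV-PyMT minus 4T1, limma called 0 of 7 members and 0% of 11938 genes; 320 genes and 1 member (Erbb2, −0.54) had an unadjusted p under 0.05. Ereg was among the 7 through its 4T1 values only, and with 0 to 5 reads in each MMTV-PyMT tumor its difference could not be followed.

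**Figure D4:**
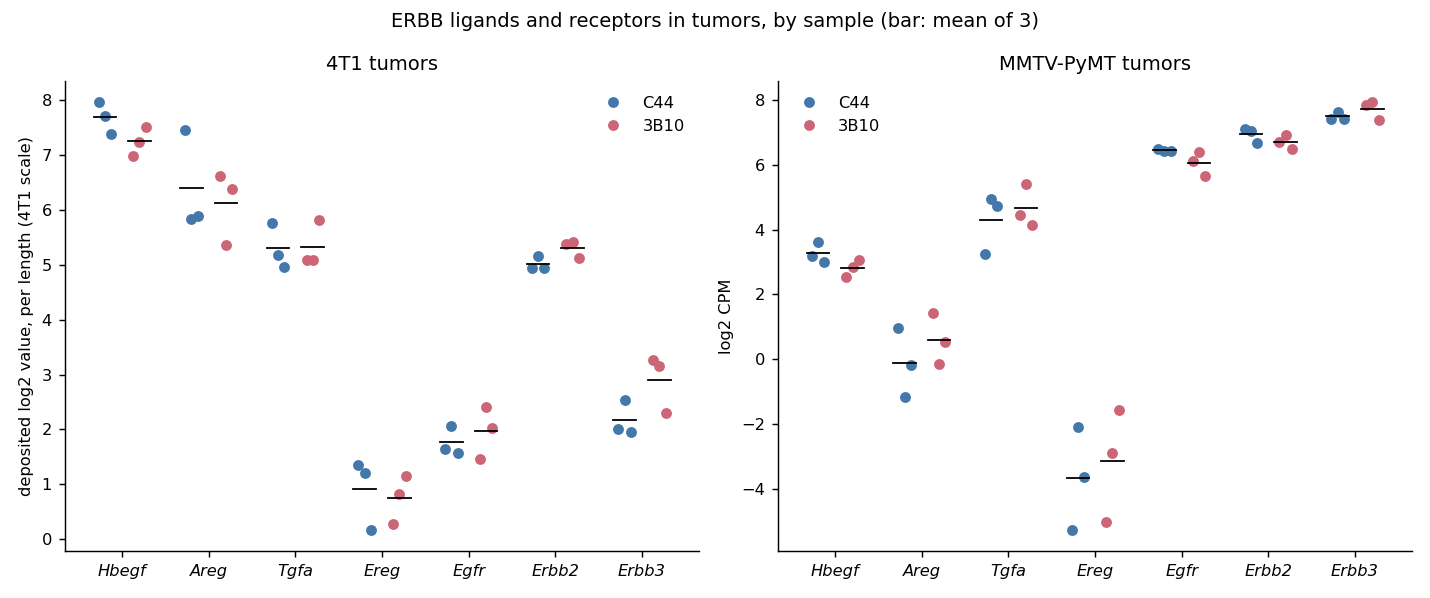
Value of each of the 7 members in each tumor, with a bar at the mean of 3. Values are the deposited log2 values in 4T1, taken as per length, and log2 CPM in MMTV-PyMT. Points of 3B10 and C44 overlap for most members, and Egfr in MMTV-PyMT is apart by 0.03.

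Summed markers of tissue makeup did not overlap between the 4T1 groups for several lists, but no gene was called. The sums were not tested. Summed over the 8 epithelial markers, on the 4T1 scale, the level was 3220, 3490 and 3470 with C44 and 4990, 4520 and 5120 with 3B10, with Krt18 the most abundant and Krt5 at 0 in 1 tumor of each group. limma called 0 of the 7 tested, with 5 at an unadjusted p under 0.05. Luminal markers (5 genes) summed to 55.2, 61.0 and 69.6 with C44 and 76.7, 72.3 and 76.0 with 3B10, nearly all of it Gata3, with Csn2 at 0 in 5 of 6 tumors, and 0 of 1 called (1 at an unadjusted p under 0.05). Leukocyte markers (4 genes) summed to 670, 651 and 720 with C44 and 563, 627 and 424 with 3B10, with Laptm5 the most abundant in 4 of 6 tumors and Cd52 in the other 2, none at 0, with 0 called and 1 at an unadjusted p under 0.05. Macrophage markers (5 genes) summed to 760, 741 and 652 with C44 and 470, 569 and 440 with 3B10, with Cd68 the most abundant in 5 of 6 tumors, none at 0, with 0 called and 3 at an unadjusted p under 0.05. Neutrophil markers (3 genes) summed to 1080, 1020 and 1840 with C44 and 1130, 709 and 558 with 3B10, overlapping groups, with S100a9 the most abundant in 5 of 6 tumors, none at 0, with 0 called and 2 at an unadjusted p under 0.05. Skeletal muscle markers (4 genes) summed to 12.7, 11.8 and 27.1 with C44 and 39.4, 167 and 254 with 3B10, with Tnnt3 the most abundant in 5 of 6 tumors, Myh4 at 0 in 2 C44 tumors, 0 of 3 called and 3 at an unadjusted p under 0.05. Fibroblast markers (8 genes) overlapped, at 1510, 2090 and 1300 with C44 and 1090, 4440 and 1870 with 3B10, with Col1a1 the most abundant, none at 0, with 0 of 8 called and 2 at an unadjusted p under 0.05. The part of these markers in the values of the members was not tested. In MMTV-PyMT the epithelial sum was 1820 to 2850 with C44 and 1890 to 2510 with 3B10, on the per length scale of that experiment, with Krt8 as the most abundant in 5 of the 6 tumors.

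In cells, some markers were called after the knockdown. The share called over all genes tested was 20.6% in E0771 and 46.4% in E0771-LG. In E0771 the epithelial sum per length was 50.3, 57.8 and 54.0 with shCtrl and 57.7, 50 and 54.4 with shPTN, nearly all of it Krt8, with Krt19 and Krt5 at 0 in every sample, and 0 of 2 tested genes were called by limma (1 at an unadjusted p under 0.05). Fibroblast markers (8 genes) summed to 9.10, 12 and 10.3 with shCtrl and 36.9, 33.9 and 37.2 with shPTN; all 5 tested were called higher, Col3a1 was the most abundant after knockdown, and Lum was at 0 in each control. In E0771-LG the epithelial sum was 80.2, 104 and 83.6 with shCtrl and 217, 291 and 265 with shPTN, with Krt8 the most abundant, Krt5 at 0 in 5 of 6 samples, and all 4 tested genes (Epcam, Krt8, Krt18 and Krt17) called higher. Its fibroblast sum was 11.2, 17.4 and 12.6 with shCtrl and 6.29, 7.81 and 8.65 with shPTN, mostly Pdgfra, with 1 of 6 called higher and 2 lower. Leukocyte markers (4 genes) summed to 4.90, 7.07 and 6.43 with shCtrl and 15.6, 10.2 and 12.1 with shPTN in E0771, mostly Coro1a, with both tested genes called higher and Ptprc at 0 in 4 of 6 samples. In E0771-LG they summed to 24.3, 23.8 and 23.8 and to 12.9, 14.6 and 15.5, mostly Laptm5, with 1 of 2 called, lower. Macrophage markers (5 genes) in E0771 summed to 7.34, 17.7 and 13.1 with shCtrl and 7.85, 6.51 and 6.25 with shPTN, overlapping groups. There limma called 0 of 2 tested, with 2 at an unadjusted p under 0.05 (log2 fold changes −0.92 and −0.63). In E0771-LG macrophage markers summed to 11.7, 12.1 and 11.1 with shCtrl and 7.04, 9.05 and 9.83 with shPTN. Cd14 was the most abundant there in 5 of 6 samples, Adgre1 was at 0 in each, and 3 of 3 were called (1 higher, 2 lower). Luminal markers (5 genes) in E0771-LG summed to 0.635, 1.29 and 0.94 with shCtrl and 2.57, 3.25 and 3.53 with shPTN, mostly Csn3, the 1 gene tested, which was called higher, with Elf5 and Csn2 at 0 in each. The adipocyte marker Fabp4 was at 2.43, 4.08 and 2.68 and at 0.264, 0.876 and 0.677 there and was called lower. Skeletal muscle markers (4 genes) summed to 3.68, 2.44 and 1.77 and to 1.60, 2.23 and 1.98, with Acta1 the most abundant in 4 of 6 samples, Myh4 at 0 in each, and 1 of 2 called (Acta1, lower). Endothelial markers reached at most 0.689 in the 12 cell samples. The part of these changes in the results for ligands and receptors was not tested.

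Positions of the other members on GRCm38 were chr6:86195223-86275719 for Tgfa (ENSMUSG00000029999) and chr11:16752203-16918158 for Egfr (ENSMUSG00000020122), both on the plus strand. Erbb2 (ENSMUSG00000062312) lies at chr11:98412470-98437716, also on the plus strand, Erbb3 (ENSMUSG00000018166) at chr10:128567523-128589652 on the minus strand, and Hbegf (ENSMUSG00000024486) at chr18:36504927-36515805 on the minus strand. Since Hbegf lies on chromosome 18, the tested genes of that chromosome were counted. In E0771-LG the median log2 fold change of the 258 genes tested on chromosome 18 was −0.47, the lowest of 20 chromosomes, with 9 genes called higher and 144 lower, while the median over all genes was 0.05. Hbegf was at the 34.5 percentile among them, with 89 genes below it. In E0771 the median of the 260 genes tested there was −0.13, again the lowest of 20, with 17 called higher and 59 lower, and Hbegf was at the 3.08 percentile with 8 genes below. The median was −0.00 over 297 genes in 4T1 and 0.06 over 285 genes in MMTV-PyMT, where Hbegf was at the 4.38 and 3.51 percentiles. Chosen after the values were seen, the chromosomes of the other members had E0771-LG medians of 0.10 (chromosome 5), 0.05 (6), 0.21 (10) and −0.02 (11). Between the control groups chromosome 11, which carries Egfr and Erbb2, had the highest median of 20, 0.25, with 369 of 888 genes called higher in E0771-LG and 147 lower. The part of these chromosomes in the results for Hbegf, Egfr and Erbb2 was not tested.

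The list of other genes of the pathway held 73 genes, of which 70 were in the table. In E0771, limma called 15 of the 68 tested (22.1%), 3 higher and 12 lower, close to the 20.6% of all genes, with a median log2 fold change of −0.14 against −0.03 over all genes. By role, 1 of 3 further ligands was called (Btc, lower), 2 of 6 sheddases and partners (1 in each direction), 1 of 8 adaptors, 2 of 21 kinases and signal carriers, 6 of 20 brakes (1 higher, 5 lower) and 3 of 10 output genes of the ERK branch (1 higher, 2 lower). Spred1, an inhibitor of RAS to ERK signalling, fell by 0.51 on the log2 scale (limma adjusted p = 0.00164) and Phlda1, an output gene, by 0.86 (limma adjusted p = 0.00208). Lrig1, which promotes loss of ERBB receptors from the cell, rose by 0.54 (limma adjusted p = 0.00462). The count was 10 without E0771shCtrl replicate 2 and 6 with all 24 samples in 1 fit, where Spred1 had an adjusted p of 0.0553.

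In E0771-LG, limma called 34 of 66 (51.5%), 6 higher and 28 lower, against 46.4% of all genes, with a median of −0.23 against 0.05 over all genes. The calls were 4 of 6 sheddases and partners (2 in each direction), 3 of 8 adaptors (all lower), 13 of 21 kinases and signal carriers (2 higher, 11 lower), 10 of 20 brakes (1 higher, 9 lower) and 4 of 9 output genes (1 higher, 3 lower), with 0 of 2 further ligands (0 at an unadjusted p under 0.05). The adaptor Crk fell by 0.66 (limma adjusted p = 0.000782) and the kinase Pik3cb by 0.92 (adjusted p = 0.002). Of the brakes, Spry4 fell by 1.14 (limma adjusted p = 0.000404), Erbin, which binds ERBB2, by 0.78 (adjusted p = 0.000192) and Socs5 by 0.75 (adjusted p = 0.0013). The count was 21 without E0771-LGshPTN replicate 2 and 22 with all 24 samples in 1 fit.

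Some outputs and brakes had log2 fold changes of opposite sign in the lines. Ccnd1, which encodes cyclin D1, had a log2 fold change of 0.49 in E0771 (limma adjusted p = 0.0019) and −0.46 in E0771-LG (adjusted p = 0.00282), and the difference of −0.96 passed the interaction test (adjusted p = 7.34e-05). Plaur, the urokinase receptor, had −0.55 (limma adjusted p = 0.00603) and 0.43 (adjusted p = 0.00519), with a difference of 0.98 (adjusted p = 0.000285). With all 24 samples in 1 fit the adjusted p was 0.132 and 0.0666 for Ccnd1 and 0.318 and 0.275 for Plaur in E0771 and E0771-LG, and 0.112 for the Plaur difference. Lrig1 was 0.54 in E0771 and −0.31 in E0771-LG, a difference of −0.85 (limma adjusted p = 0.00146). In the interaction test 21 of 68 pathway genes were called (30.9%), 6 higher and 15 lower in E0771-LG, against 34% of all genes, and 13 with all 24 samples in 1 fit. Between the control groups 37 of 68 were called (54.4%), 12 higher and 25 lower, against 54.5%. Under quantile normalization 16 were called higher and 18 lower, and under median centring 17 and 18. In the tumors limma called 0 of 66 in 4T1 (5 at an unadjusted p under 0.05), 0 of 68 in MMTV-PyMT (2 at that level) and 0 of 70 for the difference between the models (2 at that level).

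**Figure D5:**
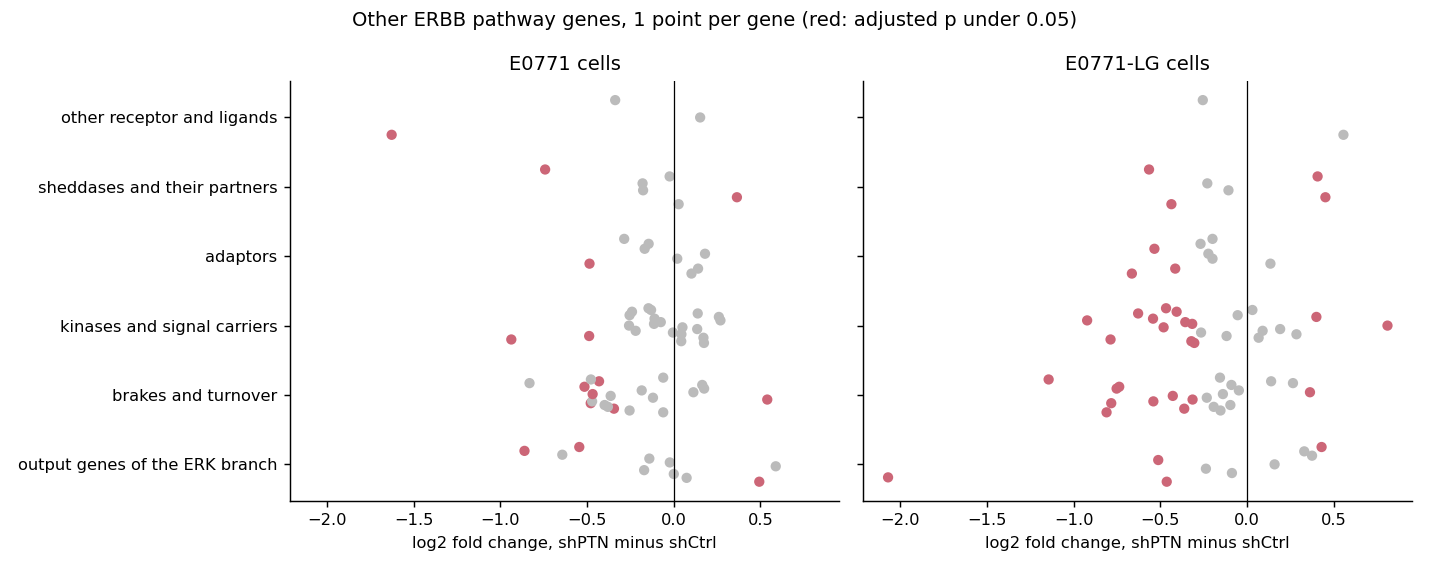
Log2 fold change, shPTN minus shCtrl, of each tested pathway gene outside the members, by role, in E0771 and E0771-LG. Red points are called genes: 15 of 68 in E0771 and 34 of 66 in E0771-LG, most of them lower.

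Over the 12 cell samples and 10222 genes, the genes whose log2 values followed each member most closely were found by Pearson r. For the ligands they were Btbd1 (0.975) and Stil (0.970) with Ereg, Crmp1 (0.968) and Relb (0.950) with Areg, and Man1a (0.957) and Ubtd2 (0.947) with Hbegf. For the receptors they were Adamts1 (0.978) and Dlc1 (0.977) with Egfr, Faah (0.965) and Nkain1 (0.964) with Erbb2, and Rb1 (0.951) and Zfp9 (0.950) with Erbb3. The 12 samples fall into 4 groups whose means differ, so these values describe a shared order of the groups and carry no test.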

How the data were processed

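The authors aligned total RNA reads (Illumina HiSeq) with HISAT2 to GRCm38 (mm10), counted them with featureCounts and used edgeR, and deposited log2 values for 12091 genes in 24 samples. Samples were grouped by the labels, 3 in each of 8 groups. In 18 samples these deposited log2 values came out as whole reads (offset 0.5 read, tolerance 0.05 read, checked up to 50 reads, all values whole), so depth is known there. In 4T1 they fell with gene length (slope −0.693 per log2 length against E0771-LG over 9382 genes), and their depth is unknown. Each experiment was fitted with limma 3.58.1 (R 4.3.3; lmFit, then eBayes with trend and robust; summaries in Python 3.11.15) over genes whose value, taken out of logs and counted from the floor of its sample, was at least 1 in 3 or more of 6 samples. P-values were Benjamini-Hochberg adjusted over all genes tested, and genes under 0.05 were called. Between lines or models an interaction term was tested. The genes named are the members in every experiment, Ptn, Hbegf's chromosome, the most alike genes by Pearson r, and, for each role of the pathway list, at most 4 called genes with the largest change; some of these are not reported here. The members and lists were chosen with earlier results of these data known. Alternatives were no filter or a stricter one (4 off the log scale), a pseudocount of 1, all 24 samples in 1 fit, plain eBayes, quantile normalization, median centring, a replicate block, voom weights on recovered reads, and each sample left out. The fitting was tested on simulated data.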

Additional observations from a re-analysis of the deposited data

Results flagged for a closer look

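The knockdown effect differed between the E0771 and E0771-LG lines, by a limma interaction test, for 3 of 6 members, against 34% of the 10576 genes tested. For Areg the difference, E0771-LG minus E0771, was 1.623 (adjusted p = 0.0127): log2 CPM fell in E0771 (log2 fold change −1.66) and overlapped between the groups in E0771-LG (−0.04). The Areg call in E0771 itself was lost with a replicate block (limma adjusted p = 0.0761). For Egfr it was −0.805 (adjusted p = 0.0295), from 0.34 in E0771 and −0.47 in E0771-LG. For Erbb3 it was 0.652 (adjusted p = 0.0378), from −0.53 in E0771 and 0.13 in E0771-LG. All 3 calls were lost with all 24 samples in 1 fit (adjusted p = 0.101 for Areg, 0.0818 for Egfr and 0.133 for Erbb3). Of the 12 fits without 1 sample, the Egfr call was lost in 6 and the Erbb3 call in 8, and the Erbb3 call was also lost with plain eBayes (0.0503) and quantile normalization (0.0783). What sets these differences was not tested.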

How the results depend on the processing

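Over single genes and pathway counts, 1480 values were recomputed: 1369 kept direction and call, 85 lost the call, 3 gained it, 19 changed sign and 4 counts moved by more than 1.5 times. Hbegf in both lines, Btc in E0771, and Ereg, outside the fit of all 24 samples, kept their calls. With all 24 samples in 1 fit, limma called 2 members in E0771, 2 in E0771-LG and 0 in the difference between the lines. Over all genes that fit called 912 in E0771, 4122 in E0771-LG, 2360 in the difference between the lines and 6 in 4T1. It called 1 gene in the difference between the models, where plain eBayes also called 1. Leaving out 1 sample gave 3 to 4 members in E0771, 2 to 4 in E0771-LG, 1 to 3 in the difference between the lines and 2 to 4 between the control groups. Over all genes it gave 1171 to 2166 in E0771, 3245 to 5122 in E0771-LG and 2640 to 3903 in the difference between the lines. It gave 4556 to 5794 between the control groups, 0 to 2 in 4T1 and 0 to 4 in the difference between the models. Signs turned for values that were not called: without 1 sample, the log2 fold change in 4T1 was −0.56 to 0.26 for Areg, −0.53 to 0.077 for Ereg, −0.22 to 0.26 for Tgfa and −0.02 to 0.46 for Egfr; in MMTV-PyMT −0.17 to 0.69 for Tgfa; in E0771-LG −0.14 to 0.16 for Areg and −0.023 to 0.24 for Erbb3; and between the control groups −0.36 to 0.27 for Areg. Quantile normalization gave 0.22 for Areg between the control groups and −0.11 for Btc in E0771-LG, and median centring 0.15 for Areg between the control groups. Same-numbered samples correlated from −0.327 to 0.436, with 6 of 12 pairs over 0.1. Of the 24 samples, 10 correlated best with their own number. Pairing by number was thus neither shown nor excluded. With the replicate block limma called 3 members and 2450 genes in E0771 (Areg at adjusted p = 0.0761), 4 and 5012 in E0771-LG, 3 and 3757 in the difference between the lines, 4 and 5993 between the control groups (Ereg at 0.0176), and 0 members in the tumors. The causes were not tested. Depth limits Tgfa in cells (0 to 2 reads), and Ereg (0 to 5 reads) and Areg (8 to 43 reads) in MMTV-PyMT tumors. The depth of 4T1 is unknown. With 3 samples a group, 1 hairpin and no protein values, the results concern RNA levels in these samples.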
